A study of Mus musculus with 12 samples.

Results

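The 10 genes of the BCL2 family followed here, which decide whether a cell lives or dies, were measured in T cells isolated from the spleens of mice with and without miR-214. They were the survival genes Bcl2, Bcl2l1, Bcl2l2 and Mcl1, the pore formers Bax and Bak1, and the BH3-only genes Bcl2l11, Bbc3, Bid and Bad. They were taken from the count table by gene symbol, from a list drawn up with earlier results of these data known, and all 10 were present among the 49315 genes of the count table. All 10 passed the filter on low counts in every comparison. T cells were taken by magnetic negative selection, in which other cells are labelled and removed, and polyadenylated RNA was sequenced in 1 library per mouse. The 4 groups of 3 mice were WT sham, WT Ang II, miR-214-/- sham and miR-214-/- Ang II. Sham mice carried minipumps with vehicle, and the other mice received angiotensin II (Ang II), a peptide that raises blood pressure, at a labelled dose of 490 ng/kg/day for 14 days. The mice were male and 12 weeks old at the start. The study's list of animals gives the strain as S129/C57 for both genotypes, but a backcrossed stock was also used in the study and the stock behind these libraries is not stated. The deletion was not restricted to T cells. The study used these libraries to ask how T cells respond to Ang II hypertension and what miR-214 contributes.

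BCL2 family proteins meet at the outer membrane of the mitochondrion. Bax and Bak open it and release cytochrome c, the survival proteins hold them shut, and the BH3-only proteins respond to stress or withdrawal of growth signals by neutralizing the survival proteins or by activating Bax and Bak directly. In T cells interleukin-7 sustains Bcl-2, Mcl-1 is needed at nearly every stage of life, and Bim, the product of Bcl2l11, removes self-reactive thymocytes and shrinks the T cell population after an immune response.

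The libraries differed in whether miR-214 was present, so its mature strand mmu-miR-214-3p and the seed matches of that strand in the members are shown first. The other mature strand, mmu-miR-214-5p, has a different seed, and matches to it are not given here. The seed is bases 2 to 8 of the mature strand, in capitals, and the letters searched for on the sense strand were its complement CCTGCTG. The mature strand lies at chr1:162223438-162223459 on the plus strand (GRCm38.p6, sequence from RefSeq).
mmu-miR-214-3p: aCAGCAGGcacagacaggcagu
Among the 3′ UTRs annotated for the members, Bcl2 and Bcl2l11 held 3 matches each, Bak1 held 1, and the other 7 members held 0. For scale, 20.3% of the 21037 genes with an annotated 3′ UTR held at least 1 match, and 24.4% of the 13105 such genes tested for the interaction. The UTRs differed in length, from 224 bases in Bax to 5086 in Bcl2, so the longer ones had more room for a match. Printed here are the match followed by an A in each of Bcl2 and Bcl2l11, which is the longest form of seed match, and the 1 match in Bak1, with the match in capitals (sense strand, GRCm38).
Bcl2, chr1:106542608-106542614 on the minus strand, 650 bases after the stop codon: actgagacttcCCTGCTGaaaga
Bcl2l11, chr2:128162087-128162093 on the plus strand, 3758 bases after the stop codon: ggttttgtcttCCTGCTGattca
Bak1, chr17:27020151-27020157 on the minus strand, 774 bases after the stop codon: aggtgagcctgCCTGCTGgggcg
A seed match is a description of the sequence. It does not show that the miRNA acts there.

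All 10 genes are protein coding, and their positions are those of GRCm38. Of the survival genes, Bcl2 (ENSMUSG00000057329) lies at chr1:106538178-106714274, Bcl2l1 (ENSMUSG00000007659) at chr2:152780668-152831728, Bcl2l2 (ENSMUSG00000089682) at chr14:54883377-54888234 and Mcl1 (ENSMUSG00000038612) at chr3:95658788-95663176. The pore formers are Bax (ENSMUSG00000003873) at chr7:45461697-45466898 and Bak1 (ENSMUSG00000057789) at chr17:27019810-27029009. The BH3-only genes are Bcl2l11 (ENSMUSG00000027381) at chr2:128126038-128162547, Bbc3 (ENSMUSG00000002083) at chr7:16308393-16318205, Bid (ENSMUSG00000004446) at chr6:120891930-120916853 and Bad (ENSMUSG00000024959) at chr19:6941861-6951899. Part of the exon bases of Bcl2 (6.09%), Bak1 (25.5%), Bid (17.7%) and Bad (20.5%) is shared with genes on the opposite strand, and part of those of Bcl2l2 (13.3%) and Bax (12.2%) with a gene on the same strand, which had at most 2 counts in any library.

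Libraries held between 21126874 and 29605988 counts, and the members' from 102 (Bcl2l2) to 22520 (Mcl1), so counting error is proportionally largest for Bcl2l2 and the other low members. The deletion could not be checked in these libraries: Mir214 had 0 counts in all 12, and its host transcript Dnm3os had 1 count in 1 WT Ang II library and 0 elsewhere. All 12 T cell markers were present in every group, but so were markers of cells the selection should have removed. CPM are counts scaled to the size of the library. In WT the summed level of the 12 T cell markers was 5023 to 5937 CPM in sham and 3349 to 3991 after Ang II, and 10 of 12 fell. Over the same comparison 8 of 11 red cell markers rose, their sum going from a range of 219 to 319 to a range of 1308 to 3304 CPM. Neutrophil markers (10 of 10 rose) summed to 208 to 269 and then 1168 to 3462 CPM. Cell cycle genes (15 of 15 rose) summed to 554 to 685 and then 1903 to 2357 CPM. Of the other marker lists in WT, 6 of 6 basophil and mast cell genes rose (sum 49.3 to 87.9 CPM in sham and 190.3 to 434 after Ang II), as did 2 of 6 megakaryocyte genes (20.6 to 37.5 and 50.1 to 61.8), 2 of 6 dendritic cell genes, 1 of 10 macrophage genes and 1 of 5 plasma cell genes. Of the NK cell genes 1 of 4 tested fell (sum of the list 155 to 248 CPM and 89.8 to 128), and 0 of 8 B cell genes were called, with 0 at an unadjusted p under 0.05 and 0 called by DESeq2. In miR-214-/- mice 0 genes of the T cell, red cell, neutrophil and cell cycle lists were called after Ang II (smallest adjusted p 0.279), with 5 of 48 at an unadjusted p under 0.05 and 1 called by DESeq2, and the red cell sum ranged from 174 to 549.7 CPM in sham and from 355 to 2451 CPM in Ang II. Between genotypes 30 of these 48 markers had an unadjusted p under 0.05 with edgeR in sham (6.67% of all genes) and 19 after Ang II (8.56%). For the interaction 37 did (14.8%). Of the 48, edgeR called 0 in each of these comparisons. DESeq2 called 6 (0.643% of all genes), 0 (0.200%) and 13 (3.22%) in the same order. The part of cell mixture in the members' genotype and interaction values was not tested. No marker in the T cell, red cell, neutrophil or cell cycle list was at 0 in any group. In such bulk samples, fewer cells of a type and less RNA per cell cannot be told apart.

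Mcl1 was by far the most abundant of the 10 in WT sham T cells once counts were divided by exon length. In CPM per kilobase of exon (mean ± SD, n = 3), Mcl1 stood at 221 ± 8.34, Bax, the cytosolic pore former, at 42.0 ± 4.24 and Bcl2 at 35.9 ± 6.22. Bak1, whose product sits in the mitochondrial membrane, followed at 17.7 ± 2.01, then the Bim gene Bcl2l11 at 12 ± 1.05 and the Puma gene Bbc3 at 9.84 ± 1.94. The lowest were Bid at 7.21 ± 0.633, Bcl2l1 (Bcl-xL) at 5.54 ± 0.988, Bad at 4.27 ± 0.289 and Bcl2l2 (Bcl-w) at 1.38 ± 0.321. The ranges of neighbours in this order overlapped for Bax and Bcl2, for Bcl2l11 and Bbc3, and for Bbc3 and Bid, and did not overlap for the other 6 neighbouring pairs. Bid moved from the seventh place in WT sham to the fifth in WT Ang II, at 11.6 ± 0.609, and its lowest Ang II library (11) was above its highest sham library (7.89). In miR-214-/- mice the order in sham was the same as in WT sham, and after Ang II Bid was in the fifth place at 9.48 ± 1.58. With the longest transcript in place of all exons, Bcl2l11 at 19.2 ± 1.68 passed Bak1 at 17.8 ± 2.03 in WT sham. Levels themselves moved too, with Bax at 60.1 ± 6.07, Bcl2 at 45.7 ± 7.92 and Bcl2l1 at 9.89 ± 1.76, while Mcl1 stayed at 221.

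**Figure D1:**
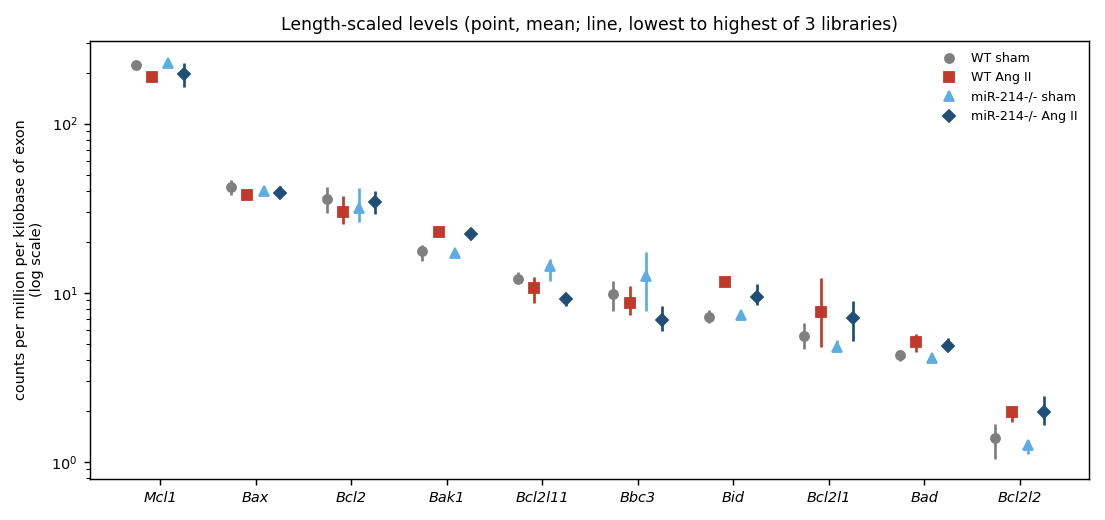
Length-scaled level of each member (y axis, CPM per kilobase of exon, log scale) in the 4 groups. Points are means and lines run from the lowest to the highest of 3 libraries; Mcl1 lies above the other members in all groups, from 188 in WT Ang II to 228 in miR-214-/- sham.

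In WT T cells Ang II raised 2 of the 10 members, Bid and Bak1, and lowered none. A gene was called where the adjusted p of edgeR's quasi-likelihood test, corrected over 16012 genes, was under 0.05, and 18.8% of all genes passed in either direction (11.7% as higher). DESeq2 called the same 2 members and 22.9% of genes. The members' share was thus near that of all genes. Their median log2 fold change was 0.08, against -0.02 for all genes tested, and 0 of 10 changed by more than 1 on the log2 scale with an adjusted p under 0.05, a bound that 7.30% of genes passed. When libraries were scaled to the T cell markers instead of to all genes, the median of all genes moved to 0.51, 7 members were called as higher and none as lower, and 8162 of 16012 genes were called as higher.

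Among the survival genes none was called in WT (libraries 1, 2 and 3 are given in that order throughout, in CPM scaled by TMM). Bcl2 measured 329, 271 and 385 CPM in sham and 341, 234 and 248 after Ang II. The groups overlapped, and the fitted log2 fold change was -0.24 (SE 0.18, adjusted p = 0.382 with edgeR). Mcl1, whose short-lived protein blocks Bak, measured 725, 763 and 781 CPM in sham and 649, 652 and 631 after Ang II. Every Ang II library was below every sham library, by a small amount relative to the level (-0.21, SE 0.07), and the adjusted p of 0.0723 with edgeR missed the threshold. Bcl2l2, which was the least abundant member, measured 6.28, 7.50 and 4.65 CPM in sham and 7.66, 9.48 and 9.23 after Ang II. Here the groups did not overlap either, in the opposite direction (0.54, SE 0.21, adjusted p = 0.122 with edgeR). Bcl2l1, whose product Bcl-xL is known for keeping red cell precursors alive, measured 24.8, 21.2 and 30.2 CPM in sham and 55.8, 27.5 and 21.8 after Ang II. A single library held the high value. The log2 fold change was 0.49 (SE 0.34, adjusted p = 0.345 with edgeR) and -0.02 without that library. The same library had the highest red cell (3304 CPM), neutrophil (3462 CPM) and macrophage (2502 CPM) sums of all 12. The part of RNA from these other cells in the Bcl2l1 values was not tested.

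Of the pore formers Bak1 rose and Bax was not called. Bak1 measured 37.0, 46.3 and 44.2 CPM in WT sham and 57.3, 51.7 and 57.0 in WT Ang II. All Ang II libraries were above all sham libraries. The log2 fold change was 0.40 (SE 0.11, 1.32-fold, adjusted p = 0.0396 with edgeR). It was 0.31 to 0.47 with any 1 of the 6 libraries left out, and in each of these 6 fits the adjusted p was above the threshold (0.0524 to 0.126), so that 1 member was called, Bid. Bax measured 59.5, 66.1 and 72.8 CPM in sham and 61.0, 61.1 and 57.2 after Ang II. These values overlapped, at a log2 fold change of -0.12 (SE 0.08, adjusted p = 0.330 with edgeR).

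Bid, which caspase-8 cuts to carry a death receptor signal to the mitochondrion, showed the largest change of the 10 members in WT. It measured 23.6, 25.2 and 28.0 CPM in sham and 39.0, 41.3 and 43.3 after Ang II, with a mean of 25.6 ± 2.25 and 41.2 ± 2.16 (SD, n = 3). The 2 groups were far apart beside their spread. The log2 fold change was 0.71 (SE 0.10, 1.63-fold, adjusted p = 0.00606 with edgeR), and Bid kept an adjusted p under 0.05 in all 16 alternatives that refitted the test, including the 6 that left out a library (0.00449 to 0.0325). The gene that shares exon bases with Bid is Bcl2l13, and reads there could be misassigned if strand was not used in counting. Bcl2l13 was not called (0.37, SE 0.11, adjusted p = 0.0583 with edgeR).

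The other BH3-only genes were not called in WT. Bcl2l11 measured 91.8, 106 and 91.9 CPM in sham and 69.3, 99.3 and 89.6 after Ang II. Bbc3, a target of p53 and FoxO3 that encodes Puma, measured 16.6, 21.3 and 24.8 CPM in sham and 15.7, 23.3 and 16.4 after Ang II. Both pairs of groups overlapped, with log2 fold changes of -0.15 (SE 0.13) and -0.16 (SE 0.20). Bad, which growth factor signalling holds inactive by phosphorylation, measured 10.1, 11.3 and 11.4 CPM in sham and 14.6, 13.2 and 11.4 after Ang II. Its Ang II libraries were the higher ones apart from 1 that lay level with the sham libraries (0.28, SE 0.14, adjusted p = 0.206 with edgeR). Counting groups alone, 3 members had every Ang II library above every sham library and 1 had every Ang II library below, while 19.1% and 22.0% of all genes did so.

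**Figure D2:**
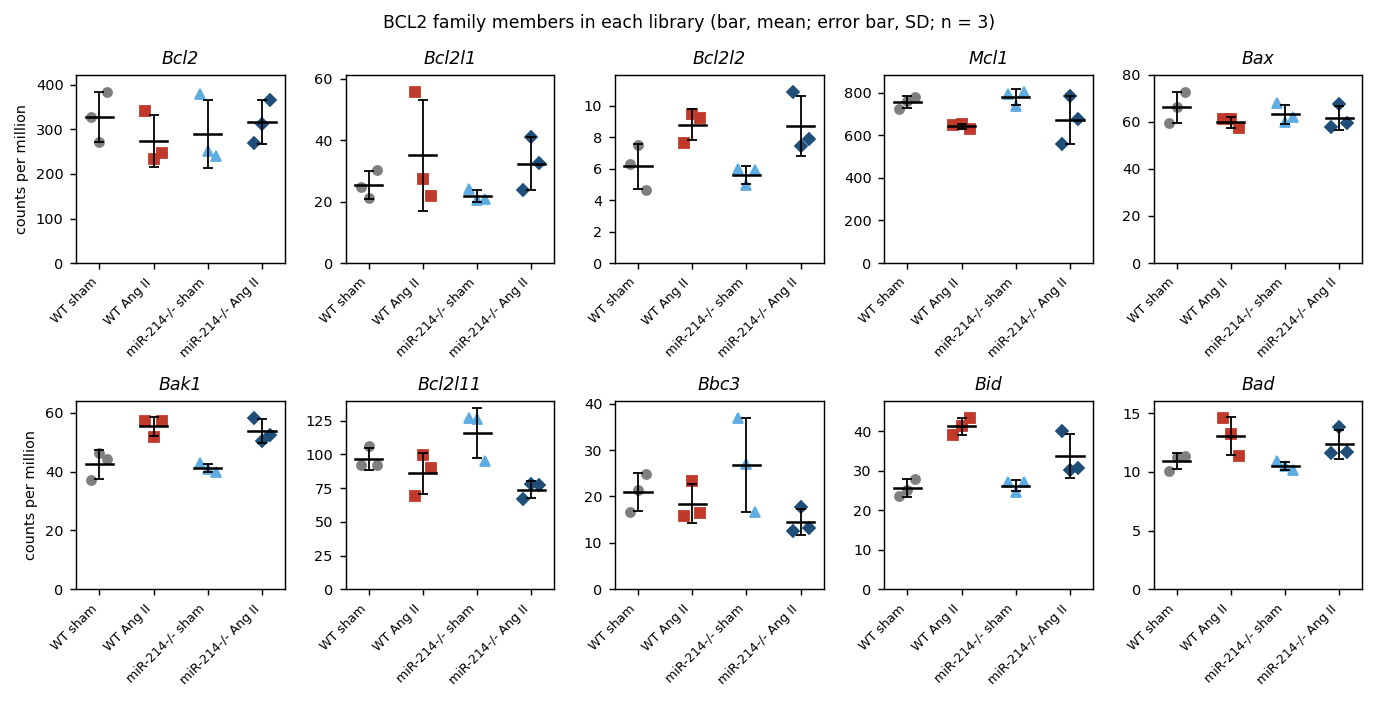
Level of each member in each of the 12 libraries (y axis, CPM, starting at 0, with a scale of its own in each panel). Points are libraries, black bars means and error bars SD of 3 libraries; for Bid, the WT Ang II points (39.0 to 43.3 CPM) lie above all WT sham points (23.6 to 28.0 CPM), and for Bcl2l11 the miR-214-/- Ang II points (67.1 to 77.8 CPM) lie below the miR-214-/- sham points (94.8 to 127 CPM).

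In miR-214-/- T cells Ang II changed none of the 10 members by edgeR's test, and none of the 15937 genes tested (0% called). At an unadjusted p under 0.05 there were 6 members, where 12.2% of all genes passed, and DESeq2 called 1, Bcl2l11, where it called 2.14% of genes. The 6 were Bcl2l1, Bcl2l2, Bak1, Bcl2l11, Bbc3 and Bid. Between groups, 4 members had all Ang II libraries above all sham libraries (8.86% of all genes did) and 1 had all below (10.5% did). The median log2 fold change of the 10 was 0.18, and 0.03 over all genes tested.

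Bcl2l11 was the member with the smallest p. It measured 127, 126 and 94.8 CPM in miR-214-/- sham and 67.1, 77.8 and 77.0 in miR-214-/- Ang II. Every Ang II library was lower, and the third sham library lay between its group and the Ang II libraries. The log2 fold change was -0.64 (SE 0.13, 0.641-fold) with an adjusted p of 0.224 with edgeR and 0.00350 with DESeq2. Its rank by p was 97 among 15937 genes. With 1 library left out the log2 fold change lay between -0.77 and -0.58.

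Bbc3, the other BH3-only gene whose fitted value was negative, measured 36.9, 26.9 and 16.6 CPM in miR-214-/- sham and 12.6, 17.8 and 13.3 in Ang II. The sham mice spread widely and the lowest of them fell within the Ang II range (log2 fold change -0.87, SE 0.29, adjusted p = 0.335 with edgeR). Bid measured 27.1, 24.6 and 27.0 CPM in miR-214-/- sham and 40.1, 30.2 and 30.7 in Ang II. All Ang II libraries were higher, with 1 of them at the level of WT Ang II mice and the other 2 well below it (0.36, SE 0.14, adjusted p = 0.385 with edgeR). Bad measured 10.9, 10.5 and 10.2 CPM in sham and 11.6, 13.8 and 11.7 in Ang II. Its groups did not overlap, at a log2 fold change of 0.24 (SE 0.14, adjusted p = 0.511 with edgeR).

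Bak1 measured 42.8, 40.9 and 40 CPM in miR-214-/- sham and 58.2, 50.3 and 52.5 in Ang II. These groups did not overlap either, with a log2 fold change of 0.39 (SE 0.09, adjusted p = 0.259 with edgeR). Bax measured 67.8, 59.8 and 62.0 CPM in sham and 57.7, 67.4 and 59.5 in Ang II, in full overlap (-0.03, SE 0.09).

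The survival genes of miR-214-/- mice showed no call. Bcl2 measured 379, 251 and 241 CPM in sham and 269, 313 and 367 in Ang II, so that the highest sham library exceeded all Ang II libraries (0.13, SE 0.20). Mcl1 measured 796, 739 and 806 CPM in sham and 559.5, 784 and 678 in Ang II, with 1 low Ang II library and 1 inside the sham range (-0.21, SE 0.14, adjusted p = 0.572 with edgeR). Bcl2l1 measured 24.1, 20.4 and 21 CPM in sham and 23.7, 40.9 and 32.5 in Ang II. The first Ang II library lay within the sham range. The second, with the highest Bcl2l1 value of the group, also had its highest red cell (2451 CPM), neutrophil (3127 CPM), macrophage (1393 CPM) and B cell (449.6 CPM) sums. The third had the lowest red cell sum of the group (355 CPM). The log2 fold change was 0.57 (SE 0.20, adjusted p = 0.344 with edgeR). Bcl2l2 measured 5.98, 4.97 and 5.91 CPM in sham and 10.9, 7.42 and 7.86 in Ang II. Its groups did not overlap, as in WT (0.64, SE 0.21, adjusted p = 0.326 with edgeR).

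Between genotypes no member was called in either treatment. In sham mice 0 of 10 members were called with edgeR (0.0251% of 15913 genes were), 0 with DESeq2 (0.643%) and 0 at an unadjusted p under 0.05 (6.67% of genes), and no member had groups that did not overlap (10.2% of genes). After Ang II 0 of 10 were called with edgeR (0% of 16215 genes) or with DESeq2 (0.200%), 0 had an unadjusted p under 0.05 (8.56% of genes), and none had groups that did not overlap (14.0% of genes). These comparisons use the same libraries as those of Ang II against sham. For the 3 members with a seed match of mmu-miR-214-3p, the log2 fold change of miR-214-/- over WT in sham was -0.18 for Bcl2 (95% CI -0.64 to 0.27), 0.25 for Bcl2l11 (-0.03 to 0.54) and -0.05 for Bak1 (-0.26 to 0.17). After Ang II it was 0.21 for Bcl2 (-0.22 to 0.64), -0.22 for Bcl2l11 (-0.54 to 0.11) and -0.04 for Bak1 (-0.27 to 0.19). Across the other 7 members the values lay between -0.22 (Bcl2l1) and 0.35 (Bbc3) in sham, and between -0.34 (Bbc3) and 0.07 (Mcl1) after Ang II. The widest of these intervals was that of Bcl2l1 after Ang II, from -1.01 to 0.78, which would hold changes as large as any seen for Bid.

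Whether the response to Ang II differed between genotypes was tested with the interaction over all 12 libraries. No member was called with edgeR (0.00596% of 16770 genes, which is 1 gene) or with DESeq2 (3.22%), and 1 member, Bcl2l11, had an unadjusted p under 0.05 (14.8% of genes). For Bcl2l11 the response was lower in miR-214-/- by 0.48 on the log2 scale, the interaction being -0.48 (SE 0.20, 95% CI -0.92 to -0.03, adjusted p = 0.311 with edgeR). All 4 BH3-only genes had negative fitted interactions, -0.70 (SE 0.39) for Bbc3, -0.33 (SE 0.17) for Bid and -0.02 (SE 0.18) for Bad, although that of Bad was 0.06 with a red cell covariate and up to 0.07 with 1 library left out. At the other end was Bcl2 with an interaction of 0.38, which was -0.13 with a red cell covariate. The fitted values for Bcl2l2, Bax, Bcl2l1 and Mcl1 were 0.12, 0.11, 0.1 and 0.02. Bak1 had an interaction of 0.00 with a 95% CI from -0.28 to 0.28, which is the range of differences in response that these libraries allow. For Bid the CI ran from -0.69 to 0.04. Bid was therefore called in WT and not in miR-214-/-, while the test of the difference between them did not pass.

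**Figure D3:**
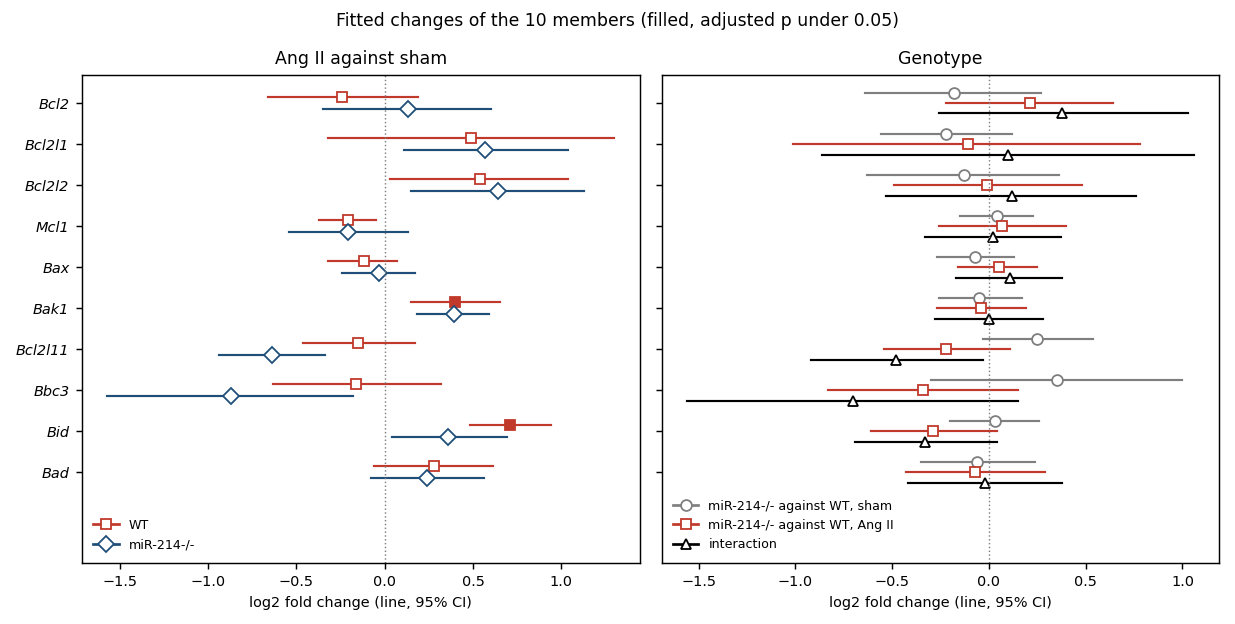
Fitted log2 fold changes of the members with 95% CI. On the left is Ang II against sham in each genotype, and on the right the 2 comparisons of genotype with the interaction; the filled symbols are the 2 changes with an adjusted p under 0.05, Bak1 (0.40) and Bid (0.71) in WT.

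Set against each other per kilobase of exon, the 4 survival genes summed to more than the 6 death genes in all 12 libraries. The ratio of the sums was 3.07, 2.70 and 2.78 in WT sham and 2.53, 2.24 and 2.29 in WT Ang II. All WT Ang II values were below all WT sham values. In miR-214-/- the ratio was 2.65, 2.64 and 3.08 in sham and 2.21, 2.87 and 2.79 in Ang II, and these overlapped. Mcl1 supplied most of the survival sum (83.8% ± 2.07 in WT sham). The death sum varied as well, from 82.9 in the first WT sham library to 106 in the first miR-214-/- sham library. In WT sham the library with the lowest Mcl1 (725 CPM) had the highest ratio (3.07). Bcl2 over Bcl2l11, a pair whose proteins bind each other, was 2.63, 1.75 and 2.22 in miR-214-/- sham and 3.52, 3.53 and 4.18 in miR-214-/- Ang II. Here every Ang II library was higher. In WT the same ratio was 3.15, 2.23 and 3.68 in sham and 4.31, 2.07 and 2.42 in Ang II, with overlap. Bcl2 over Bcl2l1 was 6.65, 6.41 and 6.39 in WT sham and 3.06, 4.27 and 5.70 in WT Ang II. It was 7.89, 6.18 and 5.73 in miR-214-/- sham and 5.69, 3.83 and 5.66 in miR-214-/- Ang II. This ratio was lower in every Ang II library of both genotypes, in miR-214-/- by a narrow gap. Its lowest value in each genotype was in the Ang II library with the highest red cell, neutrophil and macrophage sums. These ratios describe the 12 libraries and were not tested. Their size depends on the use of all exons as the length, since the longest transcript gave higher levels for Bax and Bcl2l1 but not for Mcl1.

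The members moved beside different marker lists. Bid was highest in the 4 libraries with the highest cell cycle sums: the 3 WT Ang II libraries and the first miR-214-/- Ang II library, which had 40.1 CPM of Bid and 1890.1 CPM of cell cycle genes. The other 2 miR-214-/- Ang II libraries had 30.2 and 30.7 CPM of Bid and 988 and 1029 CPM of cell cycle genes. Pearson's r of log2 CPM over the 12 libraries, given as a description since the libraries share 4 groups, was 0.92 between Bid and the mean of the cell cycle genes, 0.81 with the red cell list, 0.75 with the neutrophil list and -0.84 with the T cell list. In the same order these were 0.76, 0.66, 0.70 and -0.64 for Bak1, and -0.75, -0.56, -0.40 and 0.78 for Mcl1. For Bcl2l11 they were -0.37, -0.41, -0.56 and 0.36, and for Bcl2l1 0.12, 0.33, 0.53 and -0.02. With the B cell list r was 0.38 for Bcl2l1. The part of proliferation or of other cells in the rise of Bid and Bak1 was not tested.

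**Figure D4:**
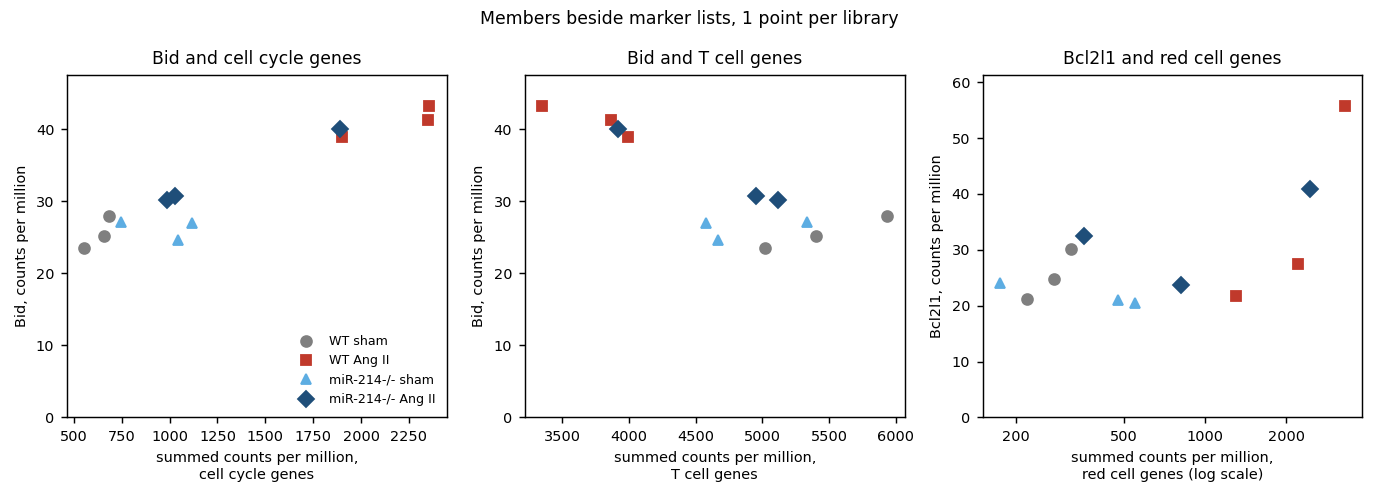
Bid against the summed CPM of cell cycle genes and of T cell genes, and Bcl2l1 against that of red cell genes (log scale), with 1 point per library and Bid or Bcl2l1 in CPM on the y axes. The 4 libraries with Bid at or above 39.0 CPM have the 4 highest cell cycle sums (1890.1 to 2357 CPM). The highest Bcl2l1 value (55.8 CPM) belongs to the library with the highest red cell sum (3304 CPM), which also has the highest neutrophil (3462 CPM) and macrophage (2502 CPM) sums.

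The genes whose log2 CPM followed each member most closely over the 12 libraries, out of 12289 genes, differed from member to member. For Bid they were Apip, which encodes an enzyme of methionine salvage named for binding Apaf-1, the pentose phosphate enzyme Tkt and Mfsd10 (Pearson's r 0.98 each). Bcl2l1 was nearest to Bpgm, a red cell enzyme of 2,3-bisphosphoglycerate, to March2 (both 0.93) and to Efhd2 (0.92). Nearest to Bbc3 were Pdcd4 (0.87), Tent5c (0.87) and Pik3ip1 (0.86), the last an inhibitor of PI3K. Bcl2l11 had Pde4d, Irs2 and Zfp874b (0.90 each). For Mcl1 they were the interferon-induced Ifi47 (0.96), Retreg3 (0.95) and Tcp11l2 (0.94), and for Bcl2 Zswim4 (0.94), Prkag2 (0.92) and Rmnd5b (0.92). Bak1 had Def8 (0.95), Bckdk (0.93) and Srbd1 (0.93), and Bax had Pqbp1 (0.95), Rnf5 (0.93) and Ccnq (0.93). Bcl2l2 had Alg14 (0.92), Rars2 (0.91) and Pdzd11 (0.91), and among those nearest to Bad were Smdt1 (0.92) and Rsad2 (0.91). With 12 libraries in 4 groups, such values are a description and carry no test.

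Further members of the family were mostly low. Of 14 other family genes 11 passed the filter in WT, 1 rose and 1 fell (over all genes 11.7% rose and 7.06% fell), with a median log2 fold change of 0.37. The 3 that did not pass were Hrk, with 0 counts in all libraries, Bcl2l10 and Bok. Bik, a BH3-only gene, fell from 4.12 ± 0.348 to 2.15 ± 0.194 CPM (-0.92, SE 0.18, adjusted p = 0.0179 with edgeR). Bcl2l15 rose from 0.764 ± 0.139 to 1.58 ± 0.319 CPM (1.06, SE 0.28, adjusted p = 0.0406 with edgeR and 0.0706 with DESeq2), at a level so low that few reads carry it. Bcl2l14 (1.15, SE 0.33), Bcl2a1a (0.89, SE 0.47) and Bmf (0.56, SE 0.31) were not called. Nor were Bcl2l13 (0.37), Bcl2a1d (0.37), Bnip3l (0.24), Bcl2a1b (0.03), Bnip3 (-0.05) and the Noxa gene Pmaip1 (-0.13). The 3 Bcl2a1 genes are near-identical copies, so reads could be split or lost between them and their values are uncertain.

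Downstream of the pore, 5 of 15 reported genes for the apoptosome, caspases and their inhibitors rose in WT and none fell (11.7% and 7.06% of all genes; median log2 fold change 0.26). Birc5, which encodes survivin and is expressed in dividing cells, rose from 8.76 ± 1.71 to 47.2 ± 9.94 CPM (2.45, SE 0.21, adjusted p = 0.00135 with edgeR). Htra2 (1.01, SE 0.23), Apaf1 (0.54, SE 0.11), Cycs (0.52, SE 0.11) and Aifm1 (0.50, SE 0.09) also rose, so that the scaffold of the apoptosome and cytochrome c, which assembles it, changed in the same direction. The inhibitors of caspases Xiap (-0.03, SE 0.10) and Birc2 (-0.04, SE 0.08) were not called. Birc5 is also a gene of dividing cells, and the cell cycle genes rose in the same libraries. What part they have in these changes was not tested.

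At the receptor end, 1 of 11 genes fell and none rose in WT (7.06% and 11.7% of all genes; median -0.16). It was Cflar, whose product c-FLIP restrains caspase-8, from 219.6 ± 12.6 to 168 ± 6.10 CPM (-0.37, SE 0.07, adjusted p = 0.0156 with edgeR). Casp8, which encodes the protease that cuts Bid, was not called (-0.12, SE 0.09), and neither were Fas (-0.24, SE 0.11) and Fasl (-0.25, SE 0.13). Among 14 genes known to control family members, 5 fell and 1 rose (7.06% and 11.7% of all genes). Il7r, the receptor chain through which interleukin-7 sustains Bcl-2, fell from 892 ± 106 to 614 ± 77.6 CPM (-0.52, SE 0.12, adjusted p = 0.0290 with edgeR). Foxo1 (-0.48, SE 0.08), Il2rg (-0.37, SE 0.08), Stat5b (-0.27, SE 0.06) and Huwe1, which encodes a ubiquitin ligase of Mcl-1 (-0.27, SE 0.07), fell as well. Gata1, the erythroid factor that drives Bcl2l1, rose from 9.90 ± 2.76 to 47.3 ± 21.5 CPM (2.27, SE 0.39, adjusted p = 0.0118 with edgeR). Stat5a, Foxo3 and Trp53 were not called, at 0.11, 0.18 and 0.00. All 12 T cell markers had negative log2 fold changes in the same libraries (-0.68 to -0.41), a range that holds the values of Il7r and Foxo1, while red cell markers rose beside Gata1. Their part was not tested.

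Outside WT none of these 51 tested genes was called by edgeR in any comparison. An unadjusted p under 0.05 with edgeR was reached by 5 in miR-214-/- Ang II against sham (12.2% of all genes). It was reached by 5 between genotypes in sham (6.67%), 6 between genotypes in Ang II (8.56%) and 14 in the interaction (14.8%). DESeq2 called 1 (2.14% of all genes), 2 (0.643%), 0 (0.200%) and 2 (3.22%) of the 51 in the same order. DESeq2 called Birc5 (1.06, SE 0.26) and Gata1 (0.99, SE 0.32) as higher in miR-214-/- sham than in WT sham, at adjusted p of 0.00371 and 0.0472, against 0.701 for both with edgeR. In miR-214-/- mice after Ang II, Il7r went from 1181 ± 228 to 688 ± 167 CPM, without overlap, and was called by DESeq2 alone (log2 fold change -0.78, SE 0.22, adjusted p = 0.303 with edgeR and 0.0131 with DESeq2). Foxo3, a known activator of Bcl2l11 and Bbc3, had every miR-214-/- Ang II library below every sham library (-0.18, SE 0.07, adjusted p = 0.405 with edgeR), as did 10.5% of all genes. Foxo1 in the same mice measured 304, 262 and 273 CPM in sham and 249, 343 and 410.3 after Ang II, with overlap. The part of either in the values of Bcl2l11 and Bbc3 was not tested. Birc5 stood at 18.3 ± 5.50 and 25.2 ± 13.6 CPM in miR-214-/- sham and Ang II, with a wide spread. In the test of the interaction, DESeq2 called Birc5 (-1.96, SE 0.49, adjusted p = 0.213 with edgeR and 0.00422 with DESeq2) and Foxo1 (0.76, SE 0.21, adjusted p = 0.213 with edgeR and 0.0395 with DESeq2), and edgeR called neither.

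**Figure D5:**
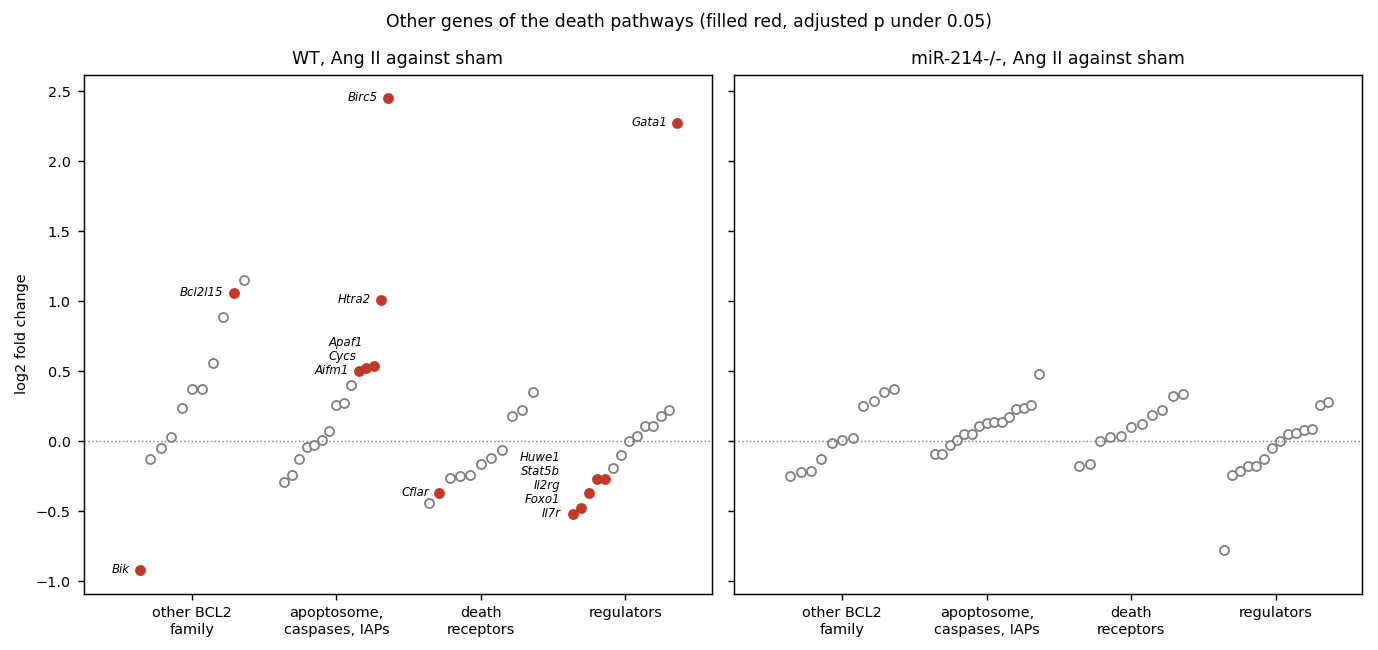
Log2 fold change after Ang II (y axis) of every tested gene in 4 lists around the BCL2 family, in WT on the left and miR-214-/- on the right, each list sorted by value. Filled red points have an adjusted p under 0.05: 7 higher and 7 lower in WT, where Birc5 (2.45) and Gata1 (2.27) lie highest and Bik (-0.92) lowest, and 0 in miR-214-/-.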

How the data were processed

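The deposited file held raw counts per gene for 12 libraries, which the authors made by trimming paired reads, aligning them with STAR to GRCm38 and counting unique exonic reads with featureCounts (Subread 1.5.2, per the labels). The strand setting and the annotation release are not given in the sources used here. Genes were named from GENCODE M21 of GRCm38, and 259 identifiers without a match held 0.0245% of counts. Counts were tested in R 4.3.3 with edgeR 4.0.16 (filterByExpr, TMM, quasi-likelihood, Benjamini-Hochberg over all genes tested), with DESeq2 1.42.0 as an alternative, at an adjusted p of 0.05. Log2 CPM used a prior count of 2, and figures matplotlib 3.10.9. Standard errors are the log2 fold change over the root of F. Each group holds 3 mice. No replicate libraries were identical.

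The members and lists were chosen with earlier results of these data known. All members were reported. From the other lists every tested gene of the BCL2 family was named. From the lists of caspases, death receptors and regulators, genes called in at least 1 comparison were named, with others named for their roles after their values were seen, and marker lists are given as counts and sums. Likeness was the highest Pearson's r among genes with a mean log2 CPM above 1. One gene of the caspase list and one of the likeness list are not reported here. On simulated data modelled on the WT libraries, 200 of 16012 genes were changed. There edgeR recovered 20 of 51 changes under 1 on the log2 scale, 124 of 149 from 1 to 2, and made 10 false calls. DESeq2 recovered 33 and 140 of these and made 61 false calls. For a simulated interaction edgeR made 7 false calls and DESeq2 35. DESeq2 thus made more false calls in these simulations. Their counts were drawn with edgeR's own estimates of spread in the WT libraries, which may favour edgeR. Ang II against sham in miR-214-/- was not simulated. How secure calls by DESeq2 alone are in the real libraries is therefore not decided. The changed genes were a smaller share than the 18.8% called in WT, so these rates may not hold for the real data. Alternatives were other scalings, filters, fits and calls, a replicate block and leaving out each library.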

Additional observations from a re-analysis of the deposited data

Results flagged for a closer look

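For Bcl2l11 the responses of the 2 genotypes to Ang II differed at an unadjusted p under 0.05. The interaction was -0.48 on the log2 scale (SE 0.20, adjusted p = 0.311 with edgeR), from log2 fold changes of -0.15 in WT and -0.64 in miR-214-/-. It did not pass adjustment. At this unadjusted threshold 14.8% of the 16770 genes tested passed, and DESeq2 gave an adjusted p of 0.194. With 1 library left out the interaction lay between -0.61 and -0.36. The genotypes were not called different in either treatment, with Bcl2l11 at 96.7 ± 8.46 CPM in WT sham and 116 ± 18.2 in miR-214-/- sham, then 86.1 ± 15.3 and 74.0 ± 5.97 after Ang II (SD, n = 3).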

How the results depend on the processing

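In WT, Bid had an adjusted p under 0.05 in all 16 refits and Bak1 in 9. With a bound of 1 on the absolute log2 fold change as well, 0 members were called in WT, with each single library left out 1 member (range 1 to 1), and with T cell scaling 7. In miR-214-/- DESeq2 called 1 member, Bcl2l11, and the other 16 alternatives 0. The counts of 0 for genotype in sham (17 alternatives), genotype in Ang II (17) and the interaction (23) did not change. With the longest transcript in place of all exons, 26 of the 40 levels per kilobase moved by at least their SD. With 3 mice a group, edgeR often missed changes under 1 on the log2 scale in simulated data. Fewer genes were changed there than were called in WT, so the rate may differ here. Members that were not called may still differ.

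Same-numbered libraries were not paired by the labels, and their deviations from the group means correlated at 0.20, 0.11 and -0.14 in WT and at -0.56, -0.23 and -0.37 in miR-214-/-, so numbers were treated as names. With the replicate number as a block 1 member, Bid, was called in WT (Bak1 0.41, adjusted p = 0.0728 with edgeR), and no other count of members changed. In neither genotype did every library correlate best with its own number.

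Direction turned only for values that were not called with TMM scaling, many of them under T cell scaling, which moved the median of all genes (to 0.51 in WT, 0.09 in miR-214-/-, 0.16 for genotype in sham, -0.31 for genotype in Ang II and -0.46 for the interaction). With T cell scaling the log2 values that turned were Bcl2 (0.28), Mcl1 (0.32), Bax (0.41), Bcl2l11 (0.39) and Bbc3 (0.38) in WT and Bax (0.03) in miR-214-/-. For genotype they were Bcl2l2 (0.02), Bax (0.11), Bak1 (0.13) and Bad (0.12) in sham, and Bcl2 (-0.11), Mcl1 (-0.26) and Bax (-0.27) in Ang II. For the interaction they were Bcl2 (-0.08), Bcl2l1 (-0.37), Bcl2l2 (-0.32), Mcl1 (-0.48), Bax (-0.38) and Bak1 (-0.47). With library totals, Bax for genotype in Ang II (-0.00) and the interactions of Mcl1 (-0.06) and Bak1 (-0.06) turned. Interactions near 0 turned with DESeq2 and with RLE scaling (Mcl1 -0.01 and Bak1 -0.03 in both). Those of Bak1 also turned with no filter (-0.01) and with 10 counts in every library (-0.02). With a red cell covariate the interactions of Bak1 (-0.02) and Bad (0.06), both near 0, turned. That of Bcl2, which was not near 0, turned as well, from 0.38 to -0.13. With 1 library left out, values crossed 0 for Bcl2l1 in WT (-0.02 to 0.73) and Bax in miR-214-/- (-0.11 to 0.02). For genotype in sham they did for Bid (-0.02 to 0.10), Bcl2l2 (-0.30 to 0.04), Bak1 (-0.13 to 0.02) and Bax (-0.13 to 0.00). In Ang II they did for Bcl2l1 (-0.36 to 0.41), Bad (-0.16 to 0.03), Bcl2l2 (-0.20 to 0.10), Mcl1 (-0.05 to 0.18), Bax (-0.03 to 0.09) and Bak1 (-0.11 to 0.00). For the interaction they did for Bad (-0.11 to 0.07), Bcl2l2 (-0.07 to 0.28), Bak1 (-0.06 to 0.09), Bcl2l1 (-0.15 to 0.61) and Mcl1 (-0.10 to 0.14). Apart from T cell scaling, whose construction ties values to the T cell markers, the cause was not tested.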
